A study of Mus musculus with 6 samples.

Results

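Syntaxins are the membrane-anchored Q-SNAREs at the core of vesicle fusion, and 10 of their genes were followed here: Stx1a, Stx2, Stx3, Stx6, Stx7, Stx8, Stx12, Stx16, Stx17 and Stx18. They were chosen by symbol from the 21937 rows of the authors' deposited table, Stx3 because its fold change was already known to be called in that table and the other 9 because they belong to the same family. All 10 symbols were present. The values of Stx3 in this comparison are therefore a description and no test of it.

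The cells came from mouse embryos whose cortical progenitors received a plasmid by in utero electroporation at embryonic day 14.5, with either a control shRNA (NTC, 3 libraries) or an shRNA against Nat14 (shNat14, 3 libraries). Both groups share the electroporation, collection at embryonic day 18.5, dissociation of the cortex and sorting of live GFP-positive cells. The labels name neither the mouse strain nor the promoters of the plasmids, and do not say whether libraries came from separate embryos or litters, so p-values may measure technical spread. The sorted cells are labelled cortical. In the authors' deposited table, Neurod6 and Tubb3, listed for excitatory neurons, had mean levels of 11.30 and 9.83 log2 CPM. CPM is a read count scaled to library depth. Slc17a7, of the same list, stood at -1.55. Fabp7, listed for radial glia, stood at 10.97 and Slc1a3, listed for astrocytes, at 9.59, so these levels do not show which cell types were sorted.

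A SNARE complex forms when a syntaxin on the target membrane zips together with other Q-SNAREs, such as SNAP-25, and with an R-SNARE of the VAMP family on the vesicle. Sec1/Munc18 proteins hold and release syntaxins, and the ATPase NSF with its SNAP adaptors takes spent complexes apart. Each syntaxin works at a particular membrane. Stx3 is known for apical delivery in epithelial cells, for release at ribbon synapses of the retina, and in neurons for neurite growth and receptor insertion.

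The part of the gene that makes a syntaxin a SNARE is shown first, because the SNARE motif is what the family shares. The stretch shown is not the one most alike between Stx3 and its relatives. For Stx2, a freely placed 90-base window matched Stx3 at 80.0% of bases, against 76.7% in the stretch shown. The stretches below are 90 coding bases each in the SNARE motif, taken from GENCODE vM21 transcripts on GRCm38. They are a window of Stx3 placed on the central residue of the motif, and the best ungapped match to it in 4 relatives. Stx3 lies on the minus strand (chr19:11783131-11785473, exons 8 to 9) and Stx2 on the minus strand (chr5:128988907-128991047, exons 8 to 9). Stx12 is on the minus strand (chr4:132858426-132860567, exons 6 to 7), Stx7 on the plus strand (chr10:24181591-24182834, exons 7 to 8) and Stx16 on the plus strand (chr2:174093989-174095065, exons 7 to 8). Each interval includes the intron between its exons. Capitals mark bases that differ from Stx3.
Stx3: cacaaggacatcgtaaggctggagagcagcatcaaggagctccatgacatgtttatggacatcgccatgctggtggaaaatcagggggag
Stx2: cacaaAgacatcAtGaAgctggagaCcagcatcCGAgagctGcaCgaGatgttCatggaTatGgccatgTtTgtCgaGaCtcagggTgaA
Stx12: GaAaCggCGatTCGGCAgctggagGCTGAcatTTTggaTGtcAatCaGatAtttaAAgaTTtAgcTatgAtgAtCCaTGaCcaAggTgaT
Stx7: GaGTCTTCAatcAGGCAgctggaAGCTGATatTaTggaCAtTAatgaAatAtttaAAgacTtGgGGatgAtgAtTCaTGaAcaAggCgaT
Stx16: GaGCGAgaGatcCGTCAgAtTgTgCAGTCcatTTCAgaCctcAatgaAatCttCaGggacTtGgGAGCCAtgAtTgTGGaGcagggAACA

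Stx2 differed from Stx3 at 21 of the 90 bases, whereas the endosomal Stx12 and Stx7 differed at 41 and 44 and the Golgi Stx16 at 47. The codon for the glutamine at the centre of the SNARE bundle, the residue that gives Q-SNAREs their name, is the third codon from the end of the stretch. A glutamine codon stood there in 11 of the 13 syntaxins examined, all but Stx8 and Stx18, whose best ungapped match need not be the corresponding stretch. Over the whole coding sequence of Stx3 (867 bases in 10 exons), the longest run of identical bases shared with any of the other 12 syntaxins examined was 15, with Stx2. None of the 848 runs of 20 bases in the Stx3 coding sequence occurred in any of those 12. A read of at least 20 bases that matches the coding part of Stx3 exactly would therefore match none of theirs exactly. Matches with mismatches were not examined, so this does not show how reads were assigned. Read length and counting mode were not stated in the sources read, and untranslated parts were not compared.

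Stx3 was the outlying member. Its value in the authors' deposited table was a log2 fold change of 2.22 for shNat14 relative to NTC, a 4.65-fold higher level, with p = 7.52e-06 and an adjusted p of 0.00869. The table names no direction, so the sign was read from Nat14 itself, which stands at -3.31 in the authors' deposited table, so that gene is no independent check of the labels. Levels of Stx3 per group have to be inferred, because the table holds a mean and a fold change and nothing per library. Taking the mean as the average of both groups, Stx3 would lie near 2.77 CPM in NTC and 12.9 CPM in shNat14. An approximate standard error of 0.50 was re-derived from the deposited p-value by a normal approximation, which gives a 95% interval of 1.25 to 3.19 on the log2 scale. That interval takes no account of Stx3 having been picked for its rise. Of all 21937 genes, 34, or 0.155%, were called at adjusted p under 0.05, and 12, or 0.0547%, were called higher. Stx3 ranked 19 by p among all rows. Of the 3112 genes within 1 log2 CPM of its mean level, Stx3 included, 8 had a larger rise and 5 a smaller p.

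Among the other 9 members 0 were called, and 0 had an unadjusted p under 0.05 in the authors' deposited table, where the shares over all 17400 genes above the lowest mean level were 0.195% and 6.35%. Their log2 fold changes ran from -0.16 (Stx18) to 0.46 (Stx17), with 7 above 0 and 2 below, or 5 above and 4 below when each gene is centred on the median of genes within 1 log2 CPM of its level. Their median was 0.13, beside 0.00 over the genes above the lowest level. All 9 differ from the 2.22 of Stx3 by at least 1.755 on the log2 scale. The upper ends of their approximate intervals ran from 0.44 (Stx18) to 1.37 (Stx1a). Those of Stx1a and Stx17 (1.30) lay above the lower end of the Stx3 interval, 1.25, so these intervals overlap.

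**Figure D1:**
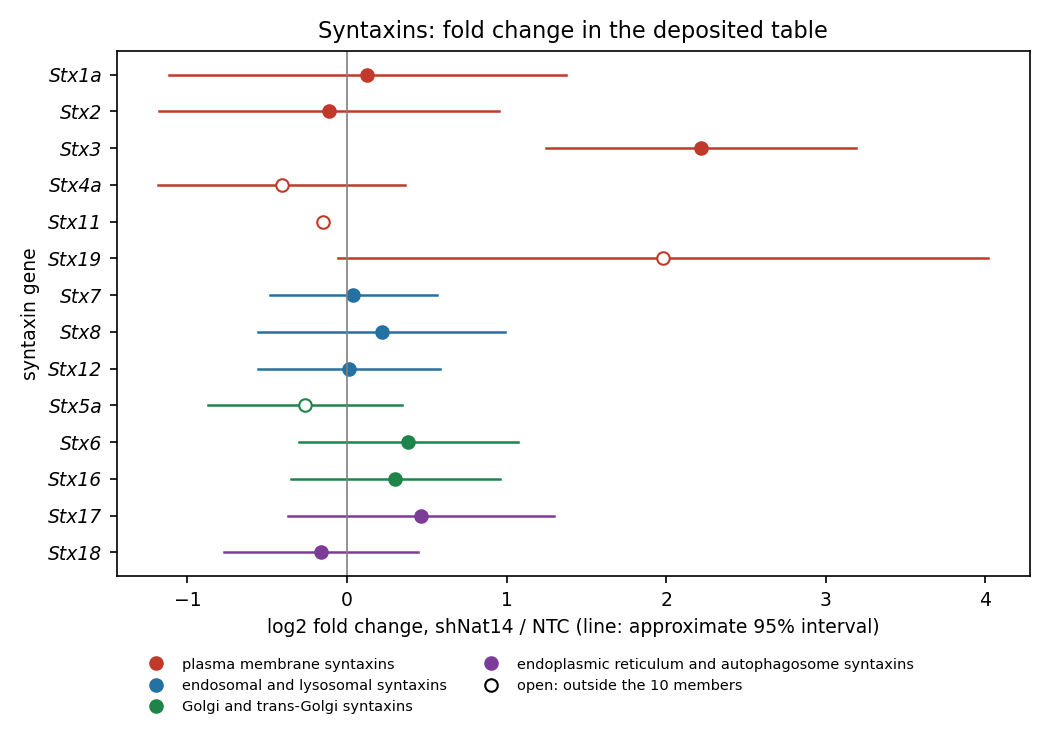
Change in shNat14 over NTC as log2 fold change (x axis) for 14 syntaxin genes (y axis), coloured by the membrane each is known for, with lines for approximate 95% intervals re-derived from the deposited p-values and open circles for syntaxins outside the 10 members. Stx3 stands at 2.22 with an interval from 1.25 to 3.19, the other 9 members lie between -0.16 and 0.46, and Stx11 has no interval because its p is 1.

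Of the other members, Stx1a and Stx2 serve the plasma membrane as Stx3 does. Stx1a, the syntaxin of synaptic vesicle release, had a change of 0.13 on the log2 scale (approximate 95% interval -1.12 to 1.37, p = 0.841) in the authors' deposited table. Stx2, also called epimorphin and used in exocytosis and in cytokinesis, stood at -0.11 (-1.18 to 0.95, p = 0.836) in the authors' deposited table. Both intervals are wide, and changes of a size within those bounds are not excluded for either gene. The group means implied by the table are 12.97 and 14.2 CPM for Stx1a and 5.51 and 5.10 CPM for Stx2, in NTC and shNat14. Each pair of values lies closer together than that of Stx3.

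**Figure D2:**
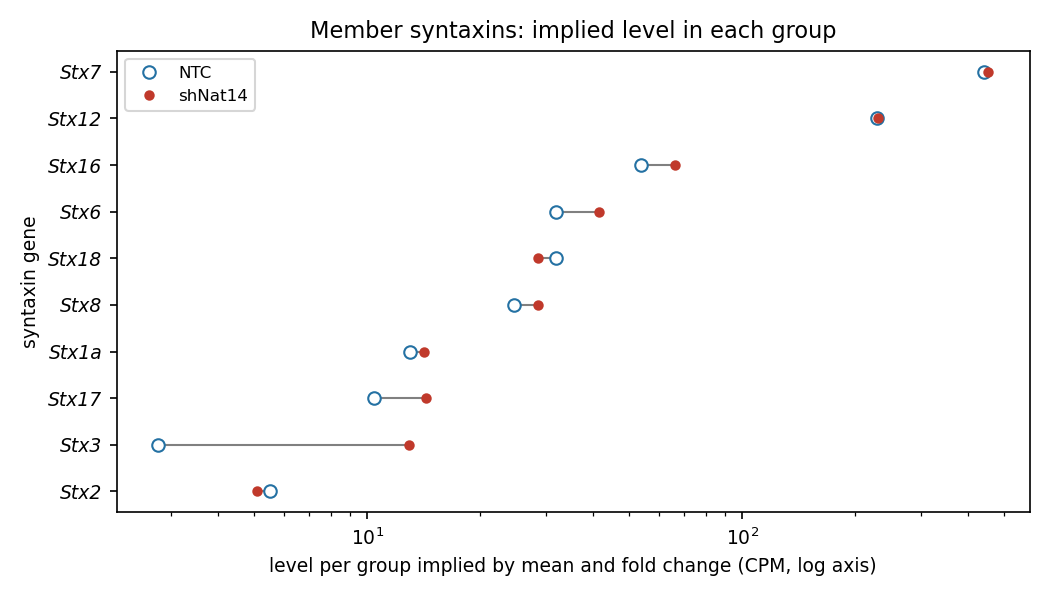
Level of each member syntaxin in NTC (open blue) and shNat14 (filled red) on a log axis in CPM, computed from the deposited mean and fold change and not measured per library. Stx3 moves from 2.77 to 12.9 CPM, while Stx7 stays between 440 and 453 and Stx12 between 228.1 and 230.04 CPM.

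Other plasma membrane syntaxins outside the 10 members gave a mixed picture. Stx4a (Stx4), a widely expressed syntaxin of regulated exocytosis, was at -0.41 (p = 0.301) in the authors' deposited table. Stx19, an unusual syntaxin without a membrane-spanning segment, had the nearest fold change to Stx3 of the 14 syntaxins, 1.98 with p = 0.0569 and adjusted p = 1 in the authors' deposited table. It was not called, its mean was -0.23 log2 CPM, and its approximate interval ran from -0.06 to 4.02. Stx11, a syntaxin of cytotoxic lymphocytes, had a mean of -1.21 log2 CPM, with its change at -0.15 in the authors' deposited table. Over the 6 plasma membrane syntaxins, 1 was called (Stx3) and the median log2 fold change was 0.01.

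Among the endosomal members, Stx7 and Stx12 had the narrowest approximate intervals of all 10. Stx7, which drives fusion of late endosomes and lysosomes, was at 0.04 (approximate interval -0.48 to 0.56, p = 0.879) in the authors' deposited table. Stx12, also known as syntaxin 13 and a SNARE of recycling endosomes, was at 0.01 (-0.56 to 0.58, p = 0.966) in the authors' deposited table. Stx8, a Qc-SNARE that pairs with Stx7, was at 0.22 (-0.55 to 0.99, p = 0.581) in the authors' deposited table. All 3 missed the threshold. They lay above 0 as deposited, but Stx7 and Stx12 stood at -0.08 and -0.09 after centring on genes of like level, whose medians were 0.12 and 0.11. All 3 intervals, that of Stx8 included, span 0, so none of the 3 has a settled direction.

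The Golgi members, Stx6 and Stx16, both act in traffic between endosomes and the trans-Golgi network. Stx6 stood at 0.38 (approximate interval -0.30 to 1.07, p = 0.273) and Stx16 at 0.30 (-0.35 to 0.96, p = 0.366) in the authors' deposited table. Stx5a (Stx5), the syntaxin of traffic from the endoplasmic reticulum to the Golgi and no member here, was at -0.27 (p = 0.392) in the authors' deposited table. Of the remaining members, Stx17, the syntaxin of autophagosome fusion, was at 0.46 (-0.37 to 1.30, p = 0.276) in the authors' deposited table. Stx18, a syntaxin of retrograde fusion at the endoplasmic reticulum, was at -0.16 (-0.77 to 0.44, p = 0.597) in the authors' deposited table. None of these passed, and the signs were mixed within the Golgi group and within the endoplasmic reticulum group.

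**Figure D3:**
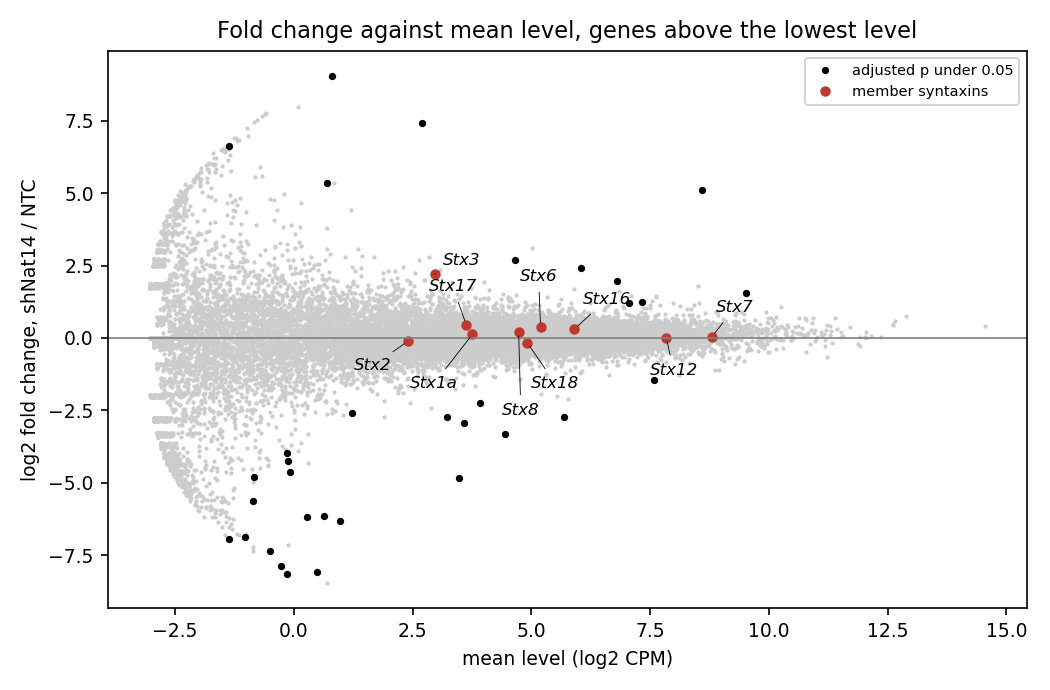
Change in shNat14 over NTC as log2 fold change (y axis) against mean level in log2 CPM (x axis) for the 17400 genes above the lowest level (grey), the 34 genes with adjusted p under 0.05 (black) and the 10 member syntaxins (red, labelled). Stx3, at 2.97 log2 CPM and 2.22, is the one member that is called, and the other 9 lie between -0.16 and 0.46.

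Levels were also ordered per transcript length, as mean log2 CPM per kilobase of the GENCODE transcript with the longest coding sequence. On that scale Stx7 (7.02) and Stx12 (6.29) led, followed by Stx16 (4.004), Stx18 (3.33), Stx6 (2.997), Stx1a (2.65), Stx8 (2.60), Stx3 (1.48), Stx17 (1.10) and Stx2 (0.85). These are means over both groups and have no spread over libraries, so whether neighbours in this order differ cannot be told. With the length of all annotated exons in place of 1 transcript, the first 4 and the last stayed in place, Stx6 moved from position 5 to 7, and Stx3 changed places with Stx17 and stood at position 9. Stx7 and Stx12 lead under either length, and Stx3 is among the lowest 3. The implied level of Stx3 was 2.77 CPM in NTC and 12.9 CPM in shNat14, so its position by mean describes neither group alone.

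Of the 12 syntaxins whose coding sequences were compared with Stx3, those closest by sequence were not those with the nearest fold change. The best-matching 90-base windows anywhere in the coding sequence were those of Stx2 (80.0% identical bases) and Stx4a (68.9%), whose log2 fold changes were -0.11 and -0.41 in the authors' deposited table. Stx19, with 64.4%, stood at 1.98 there, without being called. The order depends on the measure. Over the aligned coding sequence, with gapped positions left out of the share, Stx2 was again closest (69.1%), followed by Stx5a (63.6%) and Stx6 (62.0%). On that measure Stx4a had 57.8% and Stx19 55.5%. Leaving out gaps can raise the share for distant sequences, so it does not settle the order after Stx2. By best-matching window Stx5a had 51.1% and Stx6 55.6%, both below Stx4a.

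**Figure D4:**
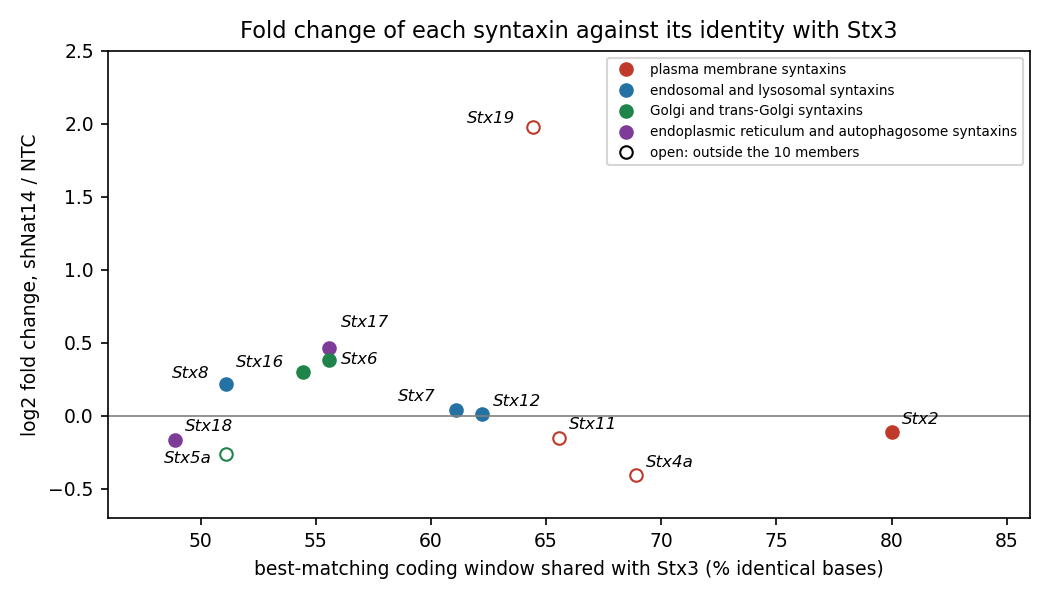
Change in shNat14 over NTC as log2 fold change (y axis) for 12 syntaxins other than Stx3 against the share of identical bases in the best-matching coding window shared with Stx3 (x axis), coloured by membrane, with open circles for genes outside the 10 members. Stx2, at 80.0%, lies near 0, and Stx19 lies alone at 1.98.

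The partners of syntaxins were examined as lists of membrane fusion genes, 82 genes besides the syntaxins. Of these, 79 lay above the lowest level and 0 were called in the authors' deposited table. At unadjusted p under 0.05 there were 4, or 5.06%, against a background of 6.35% of genes above the lowest level. Of these, 3 were higher and 1 lower, where 3.51% and 2.84% of genes above the lowest level were. That share is near the background and is no result about these genes. Their median log2 fold change was -0.05, and 64 of the 79 were within 0.5 of 0.

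The SNAP-25 family, whose members supply other Q-SNARE helices and do not all act at the plasma membrane, ran from -0.21 to 0.31, with 0 of 4 at p under 0.05. Snap23, the widely expressed member, was at 0.31 (p = 0.367) and Snap47 had the smallest p of those below 0 (-0.21, p = 0.442) in the authors' deposited table. Snap25, the neuronal member, stood at -0.03 in the authors' deposited table. Of 10 R-SNAREs above the lowest level, 3 were above 0 and 7 below, with a median of -0.06. Ykt6, a Golgi R-SNARE, had the smallest p (-0.47, p = 0.139), and on the positive side Vamp1, a synaptic vesicle R-SNARE, was at 0.48 (p = 0.467) in the authors' deposited table. Vamp7, an R-SNARE of apical and lysosomal exocytosis that pairs with Stx3 in epithelial cells, was listed at the lowest level in the authors' deposited table and gives no comparison. Among the other Qb and Qc SNAREs, 7 of 8 were below 0 as deposited (median -0.16) and 8 of 8 after centring on genes of like level. Of these 8, 0 had an unadjusted p under 0.05. Over all 17400 genes above the lowest level, 9118 were above 0 and 8282 below. Bnip1, a SNARE of the endoplasmic reticulum, was at -0.59 (p = 0.163) and Vti1b, an endosomal SNARE, at 0.06 (p = 0.826) in the authors' deposited table.

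Of the proteins that bind syntaxins directly, the Sec1/Munc18 list had 4 genes above 0 and 3 below, with a median of 0.04. Stxbp3a (Stxbp3, Munc18c) had the smallest p above 0 (0.36, p = 0.265) in the authors' deposited table. Scfd2 had the smallest p below 0 in that list (-0.32, p = 0.447) in the authors' deposited table. Stxbp2 (Munc18-2), the partner known to bind Stx3 in epithelia and leukocytes, was at 0.07 (p = 0.854) in the authors' deposited table. In the list of tomosyns, taxilins and NSF factors, 2 of 11 genes had an unadjusted p under 0.05, beside 6.35% of genes above the lowest level. Stxbp5 (tomosyn-1), which competes with VAMP for syntaxin and restrains fusion, was at 0.97 (p = 0.0425, adjusted p = 0.985) in the authors' deposited table. The taxilin Txlnb was at 2.76 (p = 0.0477, adjusted p = 0.985) at a mean of -1.07 log2 CPM in the authors' deposited table. Napa (alpha-SNAP) had the smallest p of those below 0 in that list (-0.41, p = 0.169) in the authors' deposited table.

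**Figure D5:**
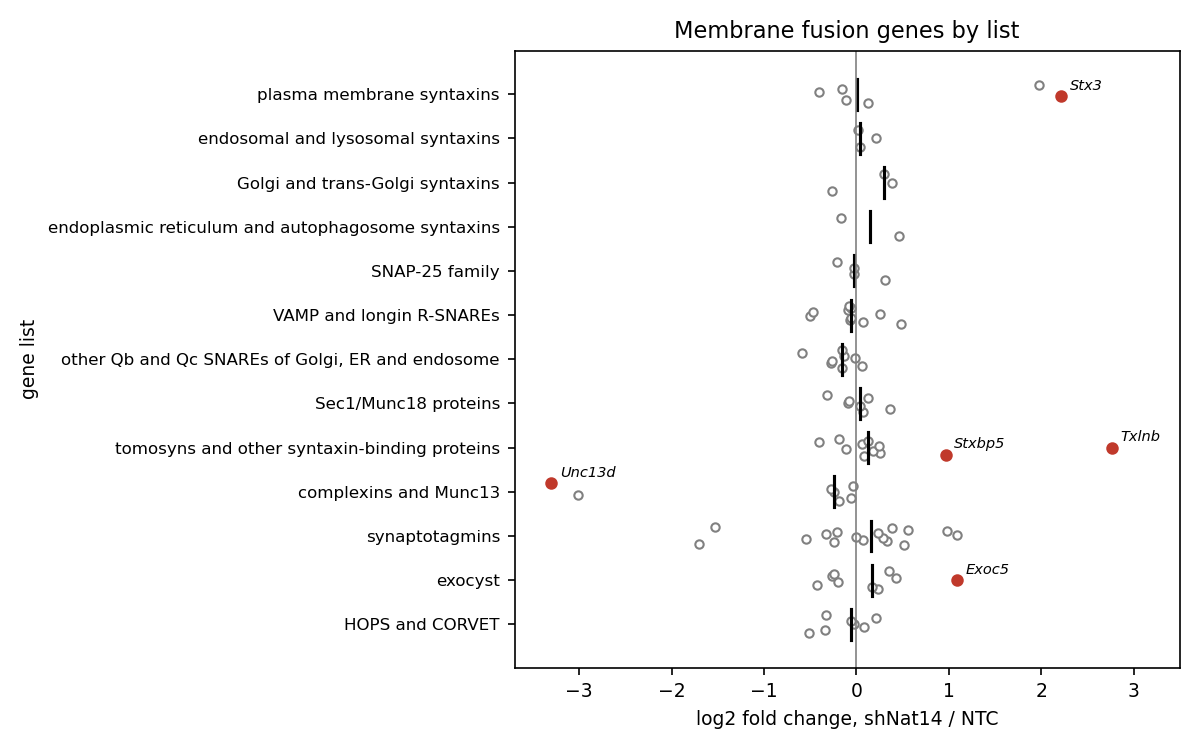
Change in shNat14 over NTC as log2 fold change (x axis) for each gene above the lowest level in 13 lists of membrane fusion genes (y axis), with filled red circles for unadjusted p under 0.05 and black bars for list medians. Medians lie between -0.24 and 0.30, and 5 genes pass that threshold, Stx3 among them as the single called gene.

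No tether or calcium sensor was called. Exoc5 (Sec10), a subunit of the exocyst that brings vesicles to the plasma membrane, was at 1.09 with p = 0.02 and adjusted p = 0.817 in the authors' deposited table, whereas the other 8 exocyst subunits lay between -0.42 and 0.43. The smallest p below 0 in this complex was that of Exoc3 (-0.42, p = 0.105) in the authors' deposited table. HOPS, the tether that works with Stx7 and Stx17 on late endosomes and lysosomes, and the related CORVET together had 2 genes above 0 and 5 below, with Vps11 at -0.51 (p = 0.232) and Vps8 at 0.21 (p = 0.516) in the authors' deposited table. Of the synaptotagmins 0 of 16 above the lowest level passed p under 0.05, with Syt2 at -1.71 (p = 0.0901) and Syt10 at 1.09 (p = 0.1) in the authors' deposited table. All 7 complexins and Munc13 genes above the lowest level were below 0 (median -0.24), beside 8282 of all 17400 genes above that level. The single one under 0.05 was Unc13d, a Munc13 of blood cells, at -3.30 (p = 0.0326, adjusted p = 0.921) and a mean of -1.997 log2 CPM in the authors' deposited table.

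The measured genes nearest to Stx3 on chromosome 19 lay well below its fold change. In the RefSeq order of GRCm38.p6, the nearest measured neighbour on one side, the mitochondrial ribosomal gene Mrpl16, was at -0.60 (p = 0.135) in the authors' deposited table. The next on that side, Gif, and the nearest 2 on the other, the olfactory receptor genes Olfr1417 and Olfr1418, were listed at the lowest level. Patl1 and Osbp, the nearest on that side with a mean above 3 log2 CPM and named after their values were seen, were at 0.19 and -0.28 in the authors' deposited table. RefSeq also places 1 noncoding gene, Gm41810, over part of Stx3, and it is not a row of the table. Whether counting kept the strand is not stated, so reads from Gm41810 could be counted for Stx3. The table counts Stx3 as 1 gene, so its splice forms are not separated.

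The 3 genes with fold changes nearest to Stx3 among those within 1 log2 CPM of its level were 4833427G06Rik (2.23), Lrriq1 (2.30) and Fam198b (2.32) in the authors' deposited table. Their adjusted p-values were 0.0642, 0.114 and 0.409 in the authors' deposited table, so these 3 were not called. Likeness here rests on 1 comparison and says nothing about single libraries.

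Markers of several other cell types lay away from 0 in the same comparison as Stx3, where 6.35% of genes above the lowest level had an unadjusted p under 0.05 (3.51% higher, 2.84% lower) and 0.195% were called. Of those 17400 genes, 9118 were above 0 and 8282 below. All 6 choroid plexus markers were above 0 (median 1.17), none was called or had an unadjusted p under 0.05, and their summed level implied by the table was 172 CPM in NTC and 586 CPM in shNat14, most of it Ttr. All 5 endothelial markers were above 0 as well, 1 of them at p under 0.05 (median 1.89, summed 10.6 and 17.7 CPM). Astrocyte markers were below 0 in 6 of 6, 4 at p under 0.05 and 1 of these, Agt, called (median -1.10, summed 1697 and 1069 CPM). Microglial markers were below 0 in 5 of 6, with 4 at p under 0.05 (median -1.47, summed 30.6 and 12.03 CPM), and interneuron markers in 5 of 6, also with 4 (median -0.71). For oligodendrocyte lineage and meningeal fibroblast markers 1 of 5 and 1 of 4 were lower at p under 0.05, and for radial glia and intermediate progenitors 0 of 7 and 0 of 4. No marker of these lists was at the lowest level. In bulk RNA, fewer cells of a type and less RNA per cell cannot be told apart, and the part of these cell types in the value of Stx3 was not tested. The excitatory neuron markers had a median of 0.19 with 0 of 7 under 0.05.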

How the data were processed

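RNA sequencing libraries of sorted cortical cells (3 shNat14, 3 NTC) were represented by 1 table of the authors' own comparison. Per the file headers, each gene has a fold change and a mean CPM, both as log2 values, with its p-value and adjusted p-value, all deposited by the authors. Tools listed in the submitters' processing notes are DESeq, HTSeq 0.5.4p1, SAMtools 0.1.19 and TopHat2 2.0.8. The notes list the human build hg19 for mouse samples with mouse symbols, which leaves the build unknown. Normalization, filters and depth per library were not stated, and no interval that needs depth is given. The column names are those of a different count package than the one named, so the authors' test is not certain.

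The members and lists were chosen with earlier results of these data known. Of 96 list entries, 93 matched by symbol and 3 by another symbol in RefSeq (GRCm38.p6). Some list genes and sequences, that of Stx1a among them, are not reported here, so statements on sequence cover 12 relatives of Stx3. Genes were called at adjusted p under 0.05. The deposited adjusted p-values equal a Benjamini-Hochberg adjustment over all 21937 rows to within 4.05e-05. The 4537 rows at the lowest mean level (-3.09 log2 CPM) were left out of list counts. Approximate standard errors were the absolute fold change divided by the normal quantile of the p-value, and levels per group were computed from mean and fold change. The adjustment and the re-derived errors were run on data simulated from a normal model. That checks the arithmetic only and cannot show whether the normal approximation holds for the authors' test. Coding sequences were compared with Biopython 1.88 in Python 3.11.15 (scipy 1.17.1, pandas 2.3.3). Named genes are all members, the other syntaxins, for each list the smallest p in each direction and every call, the 2 nearest neighbours of Stx3 on either side in the table, and the 3 genes nearest in fold change at its level. Snap25, Vamp7, Stxbp2, Neurod6, Tubb3, Slc17a7, Fabp7, Slc1a3, Ttr, Agt, Cldn5, Patl1 and Osbp were named in addition, after their values were seen.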

Additional observations from a re-analysis of the deposited data

How the results depend on the processing

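The count of 34 called genes depended on the threshold, the adjustment and the genes included. It was 19 at adjusted p under 0.01, 55 at adjusted p under 0.1, 17 with Bonferroni correction, 43 with adjustment over the genes above the lowest level, and 16 with adjustment limited to genes whose mean level reached the median. Of the 34, 16 lie at or above that median, so this last count is the number of called genes at those levels under the deposited adjustment too. Stx3 stayed called with either restricted set of genes, but not with Bonferroni correction over all rows, where its corrected value from the deposited p-values was 0.165. Leaving out the lowest level could only lower the adjusted p of Stx3, because no called gene lay there, so that setting is no test of the call. Re-centring of fold changes moved no member by more than its approximate standard error, but with centring on genes of like level Stx7 turned to -0.08 and Stx12 to -0.09. Membrane fusion genes at unadjusted p under 0.05, 5 in all with Stx3, came to 3 among genes whose mean level reached the median. Without Stx3 the members held 0. No paired analysis was possible because there were no columns for single libraries, and for that reason no library was left out in turn. With depth unknown, the precision of low genes such as Stx2, Stx3 and Stx19 rests on the deposited p-values alone.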

Other observations

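Vamp7, Cplx4 and Syt8 were the 3 membrane fusion genes of the lists listed at the lowest level in the authors' deposited table.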
